A study of Mus musculus with 4 samples.

Results

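The genes described here are the 3 D-type cyclins, Ccnd1, Ccnd2 and Ccnd3, and the 7 cyclin-dependent kinase (CDK) inhibitors Cdkn1a, Cdkn1b, Cdkn1c, Cdkn2a, Cdkn2b, Cdkn2c and Cdkn2d. They were chosen by name, with earlier results of these data known. All 10 of the 10 were found among the 18193 named genes of the array, on 22 probe sets. Each probe set is a group of oligonucleotides that reads 1 or more transcripts. Each gene is given by its brightest probe set on average. Expression was measured on 4 Affymetrix Mouse430_2 arrays of endothelial cells from B16 melanoma, a transplantable pigmented tumor line, grown in C57BL/6 mice with a multi-color Cre reporter. All groups shared this background: tamoxifen switched on reporter colors, dissociation followed inoculation by 2 weeks, and cells without CD45 and with CD31 and CD144 were sorted. Expansion arrays held the most frequent clone and extinction arrays the least frequent clone of tumor A or tumor B, so there was 1 array for each of the 4 combinations and 2 per clone class. The driver of Cre and the ages of the animals are not given in the sources used here.

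D-type cyclins are the growth-factor-sensitive partners of CDK4 and CDK6, which phosphorylate the retinoblastoma protein and so release E2F factors for entry into S phase. Inhibitors of the INK4 family (Cdkn2a to Cdkn2d) bind CDK4 and CDK6 and keep D cyclins off them, while those of the Cip/Kip family (Cdkn1a, Cdkn1b and Cdkn1c) bind whole cyclin-CDK complexes. In blood vessels these genes are known for their part in the arrest of endothelial cells as vessels mature and in their return to the cycle during sprouting.

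For the 3 members whose levels ran closest together (Cdkn2c, Cdkn2d and Ccnd3) and for Cdkn1a, whose window held the rarest of the motifs searched, the 250 bases before an annotated start site are shown, from RefSeq's GRCm38.p6 table. The table held 11 windows of 7 members; Ccnd1, Ccnd2 and Cdkn1c had no entry. The array values themselves are tied to no genome build. In the windows of Cdkn2c, Cdkn2d and Ccnd3 capitals mark the GC box, GGGCGG or its reverse complement, a motif bound by Sp1-type factors:
Cdkn2c, chr4:109666757-109667006, minus strand: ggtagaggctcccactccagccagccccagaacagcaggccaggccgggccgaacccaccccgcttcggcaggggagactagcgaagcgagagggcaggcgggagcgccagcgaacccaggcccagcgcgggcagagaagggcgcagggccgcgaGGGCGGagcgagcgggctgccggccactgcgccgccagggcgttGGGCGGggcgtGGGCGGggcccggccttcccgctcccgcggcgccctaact
Cdkn2d, chr9:21291210-21291459, minus strand: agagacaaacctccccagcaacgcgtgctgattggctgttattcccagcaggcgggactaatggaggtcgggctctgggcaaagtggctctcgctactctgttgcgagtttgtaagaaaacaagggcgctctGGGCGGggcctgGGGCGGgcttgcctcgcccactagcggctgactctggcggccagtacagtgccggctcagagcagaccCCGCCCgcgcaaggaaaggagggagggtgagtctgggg
Ccnd3, chr17:47593217-47593466, plus strand: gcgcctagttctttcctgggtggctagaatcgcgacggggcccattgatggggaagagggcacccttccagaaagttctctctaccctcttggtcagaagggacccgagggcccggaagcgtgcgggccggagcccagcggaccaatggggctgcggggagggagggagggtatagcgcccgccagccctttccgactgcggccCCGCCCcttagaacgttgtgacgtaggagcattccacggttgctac
In the more upstream window of Cdkn1a capitals mark CATGNNNNNNCATG, the spacing of the core letters in a p53 element of adjoining 10-base sites:
Cdkn1a, chr17:29090729-29090978, plus strand: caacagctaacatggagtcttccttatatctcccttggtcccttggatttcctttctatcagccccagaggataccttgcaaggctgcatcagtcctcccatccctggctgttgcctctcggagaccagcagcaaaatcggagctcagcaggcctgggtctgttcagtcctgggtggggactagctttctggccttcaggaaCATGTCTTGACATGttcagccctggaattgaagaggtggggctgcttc

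Cdkn2c and Cdkn2d had 3 GC boxes each in these windows and Ccnd3 had 1, but the other Cdkn2c window had 0. Windows of Cdkn1a, Cdkn1b and Cdkn2a, members with other patterns, held GC boxes too. On either strand, the GC box was found in 7 of the 11 member windows and in 32.7% of all 32851 windows of the same length. The p53 spacing was found in 1 of the 11, beginning 48 bases before the more upstream Cdkn1a start, and in 0.49% of all windows. With its flanks the match read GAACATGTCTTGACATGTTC. The window of the other Cdkn1a start held no such match. CCAAT was found in 3 of the 11 and 33.8% of all windows, the forkhead sequence GTAAACA in 1 of the 11 (the other Ccnd3 window) and 3.17%, and neither CACGTG (6.02% of all) nor TATAAA (12.4% of all) in any of the 11. A match describes the letters and not binding.

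The arrays differed in the level of markers of other cells. Below, 4 values in a row are expansion then extinction of tumor A, followed by the same pair of tumor B. The mean log2 level of 13 measured melanoma genes was 12.06 (expansion) and 7.31 (extinction) in tumor A, and 6.34 (expansion) and 11.29 (extinction) in tumor B, and that of 20 endothelial genes was 8.56, 10.73, 11.11 and 9.50 in the same order. The gate's own marker CD144 (Cdh5) was at 8.69, 11.46, 11.51 and 9.80, while CD45 (Ptprc) lay between 3.63 and 4.27. List means were 12.12, 12.88, 12.99 and 12.27 for 10 fibroblast genes, 5.49, 5.67, 5.53 and 5.43 for 11 leukocyte genes, and 5.18, 4.95, 5.05 and 4.89 for 10 keratinocyte genes. Among melanoma and endothelial genes listed by name, Dct was at 14.36, 9.79, 7.62 and 13.84, Tyr at 11.85, 6.27, 4.30 and 10.55, Pecam1 (CD31) at 6.16, 8.82, 8.61 and 6.90, and Kdr at 8.82, 11.62, 12.06 and 9.75, while the collagen gene Col1a2 stayed between 14.50 and 14.91. Expansion A and extinction B thus carried more melanoma and less endothelial signal than the other arrays, across the clone labels. A true opposition of the tumors and an exchange of the 2 arrays of 1 tumor cannot be told apart from these files. An exchange would turn the sign of every clone difference in that tumor. It would also change the clone means and the tumor differences within each class, but not the mean of either tumor. How far this mixture contributes to the differences of the members was not tested, and in a mixed sample fewer cells of a type and less RNA per cell cannot be told apart.

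**Figure D1:**
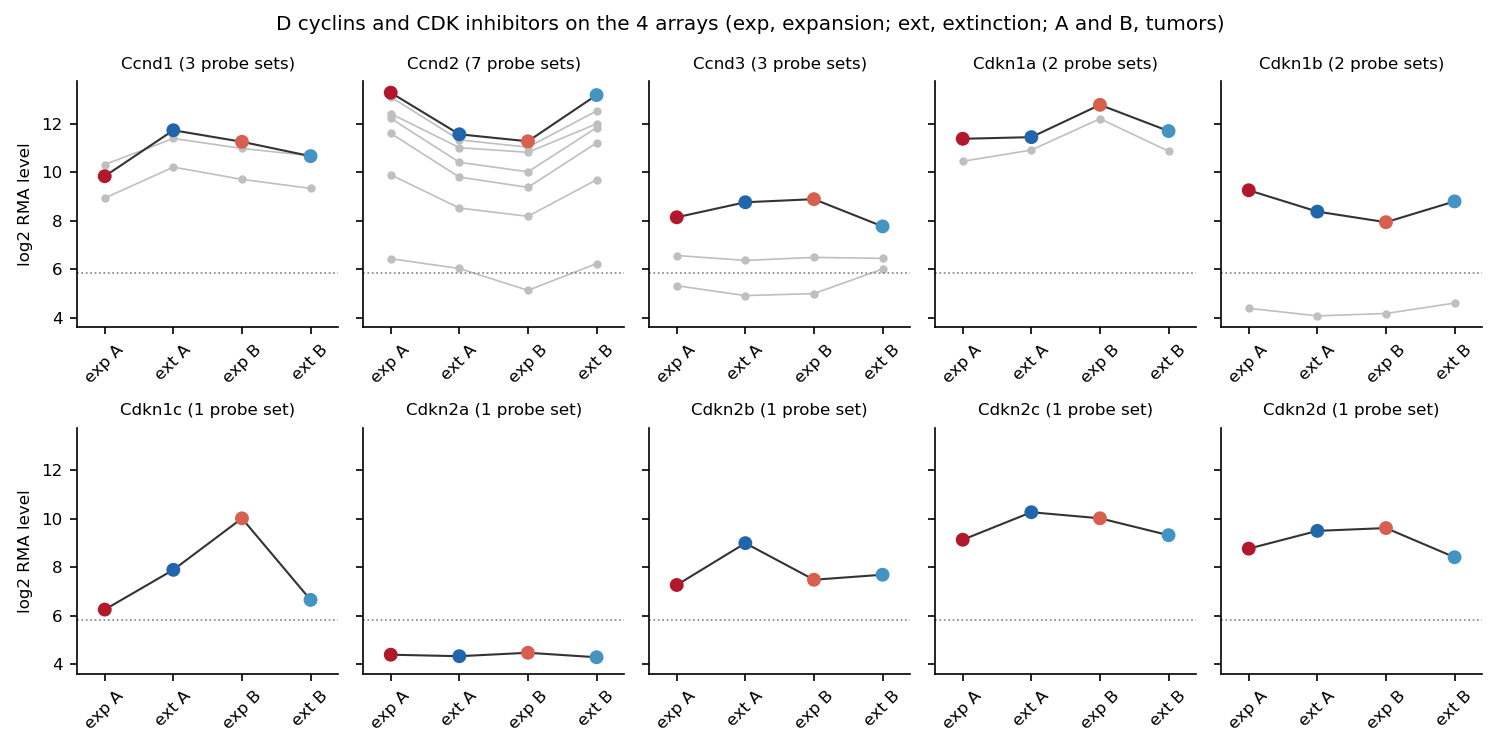
Log2 RMA level (vertical axis) of each member on the 4 arrays (horizontal axis: exp, expansion; ext, extinction; A and B, the tumors). Colored points joined by a dark line are the probe set that stands for the gene, grey points are its other probe sets, and the dotted line is the median of all probe sets, 5.83. Ccnd2 and Cdkn1b are highest in expansion A, Cdkn1a and Cdkn1c in expansion B, Cdkn2b in extinction A, and Cdkn2a lies below the dotted line throughout.

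Among the D cyclins, Ccnd2 ran opposite to Ccnd1 and Ccnd3. Ccnd2, whose product is the D cyclin best known from lymphoid and ovarian cells, was at 13.28 (expansion) and 11.56 (extinction) in tumor A, and 11.27 (expansion) and 13.18 (extinction) in tumor B. The arrays with more melanoma signal were both high and the others both low, while the clone classes overlapped. The level in expansion was 3.29-fold that of extinction in tumor A, and in tumor B extinction was 3.75-fold above expansion.

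All 7 probe sets of Ccnd2 had this combination of signs, with log2 differences of expansion minus extinction between 0.40 and 1.82 in tumor A and between -1.91 and -1.10 in tumor B. The one that stood for the gene, 1455956_x_at, carries the array maker's mark for probes that can bind other transcripts. The next brightest, 1416122_at, has no such mark and was at 13.10, 11.33, 11.03 and 12.52 in the same array order. Since the 2 tumors nearly cancelled, the mean clone difference was -0.10 ± 0.99 (SE, n = 2 per class) on the first of these and 0.14 ± 0.92 (SE) on the second. Every SE given here is limma's moderated one, which draws partly on the spread of all probe sets.

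Ccnd1, the D cyclin induced by growth factor and adhesion signals in endothelial cells, was at 9.83 (expansion) and 11.73 (extinction) in tumor A, and 11.25 (expansion) and 10.66 (extinction) in tumor B. Extinction A was the highest and expansion A the lowest, so tumor A spanned the whole range and the classes overlapped. Extinction was 3.72-fold above expansion in tumor A, whereas expansion was 1.51-fold above extinction in tumor B. Its other probe sets had the same signs in both tumors: with all 3, the log2 difference lay between -1.90 and -1.08 in tumor A and between 0.30 and 0.59 in tumor B. The mean clone difference was -0.65 ± 0.69 (SE).

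The log2 clone difference of Ccnd2 minus that of Ccnd1 was 3.61 (tumor A) and -2.50 (tumor B). Ccnd3, the most widely expressed D cyclin, was at 8.14 (expansion) and 8.76 (extinction) in tumor A, and 8.89 (expansion) and 7.76 (extinction) in tumor B. It was highest where endothelial signal was highest, and expansion differed from extinction by -0.62 (tumor A) and 1.12 (tumor B) on the log2 scale. Its 2 dimmer probe sets did not follow: 1444323_at stayed between 6.36 and 6.56, and 1438805_at was at 5.32, 4.91, 4.99 and 6.01, highest in extinction B. The 2 brightest of its 3 probe sets thus disagree, and the Ccnd3 pattern rests on 1 of them.

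Within the Cip/Kip family the brightest probe set of each gene had a pattern of its own. Cdkn1c encodes p57, an inhibitor expressed from the maternal allele and known from quiescent and differentiating cells. It was at 6.25 (expansion) and 7.89 (extinction) in tumor A, and 10.01 (expansion) and 6.65 (extinction) in tumor B. Expansion B lay above all others, by 2.12 over the next array, and expansion A was the lowest, so the 2 expansion arrays were the ends of the range.

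Extinction exceeded expansion 3.12-fold for Cdkn1c in tumor A, and expansion exceeded extinction 10.3-fold in tumor B. Its range of 3.76 was the largest among the members, and 1.06% of all genes had a range as large. The endothelial list mean was also lowest in expansion A (8.56) and highest in expansion B (11.11), and its part in the Cdkn1c level was not tested. A list of 10 measured adipocyte genes, chosen after other results had shown fat genes on that array, had means of 5.63, 5.99, 7.45 and 6.09 in the same order; its part in the Cdkn1c level was not tested.

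Cdkn1a encodes p21, the inhibitor that p53 induces after DNA damage. It was at 11.38 (expansion) and 11.44 (extinction) in tumor A, and 12.78 (expansion) and 11.70 (extinction) in tumor B. Only expansion B stood apart, 1.08 above the next array, while the other 3 arrays lay within 0.32 of each other. Such a pattern, with 1 array at least 2-fold above the next and the other 3 within 2-fold, was found in 2 of the 10 members (Cdkn1a and Cdkn2b) and in 1.94% of all genes.

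The other probe set of Cdkn1a, 1421679_a_at, was at 10.45, 10.91, 12.20 and 10.87 and was likewise highest in expansion B. Its arrays had the same order as those of Cdkn1c. By the brighter probe set both arrays of tumor B lay above both of tumor A, as for 1 of the 10 members and 23.2% of all genes. By the other they overlapped, since extinction B was 0.04 below extinction A. The adipocyte means given for Cdkn1c were highest on the same array, and their part here was not tested.

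Cdkn1b encodes p27, an inhibitor held largely at the level of protein turnover. It was at 9.25 (expansion) and 8.37 (extinction) in tumor A, and 7.94 (expansion) and 8.79 (extinction) in tumor B. It ran with Ccnd2 and the melanoma list, and against Cdkn1c. In tumor A expansion was 1.84-fold above extinction, and in tumor B extinction was 1.81-fold above expansion, so that the mean clone difference was 0.01 ± 0.54 (SE). Its dimmer probe set, between 4.07 and 4.60, had the same signs.

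The INK4 family split 3 ways. Cdkn2c encodes p18, an INK4 inhibitor that rises in cells leaving the cycle to differentiate, and was at 9.13 (expansion) and 10.27 (extinction) in tumor A, and 10.02 (expansion) and 9.32 (extinction) in tumor B. Cdkn2d encodes p19INK4d, whose level follows the cell cycle, and was at 8.76, 9.50, 9.61 and 8.41 in the same order. For both, the arrays richer in endothelial signal were the higher ones and the clone classes overlapped.

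Cdkn2c differed by -1.13 in tumor A and 0.70 in tumor B on the log2 scale, and Cdkn2d by -0.73 and 1.20. After each gene's mean was subtracted, Cdkn2d and Ccnd3 differed by a root mean square of 0.05 over the 4 arrays, the closest of all pairs of members. Cdkn2c followed at 0.23 from Cdkn2d and 0.24 from Ccnd3.

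Cdkn2b encodes p15, an inhibitor known for its induction by TGF-beta. It was at 7.27 (expansion) and 8.99 (extinction) in tumor A, and 7.48 (expansion) and 7.69 (extinction) in tumor B. Extinction A stood 1.30 above the next array while the other 3 lay within 0.42, so it followed neither the endothelial nor the melanoma list. Extinction exceeded expansion 3.31-fold in tumor A and 1.15-fold in tumor B, and the classes did not overlap, as for 2 of the 10 members and 20.7% of all genes.

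A list of 10 pericyte and smooth muscle genes was also highest in extinction A, with means of 10.38, 11.30, 10.57 and 10.14 in the same order. Its part in the Cdkn2b level was not tested. Cdkn2a, which encodes both p16 and the p53-stabilizing ARF protein, neighbors Cdkn2b on chromosome 4 with no protein-coding gene between them. It was at 4.39, 4.33, 4.47 and 4.29 in that order. This lay below the median of all probe sets, 5.83, on every array, and 90.2% of genes had a range as large as its 0.19. The other non-overlapping member was Cdkn2a, at a distance between the classes that is small beside any other member's range.

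**Figure D2:**
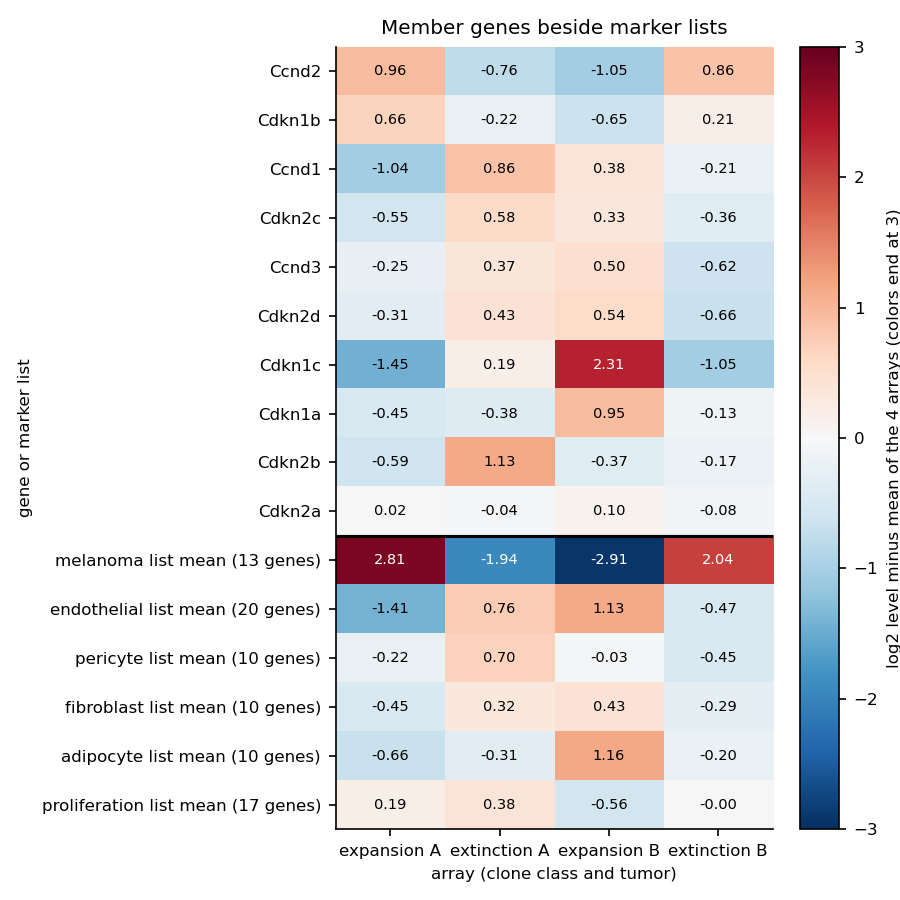
Log2 level of each member, or mean log2 level of each marker list, after subtraction of its mean over the 4 arrays (color and printed value), by array (horizontal axis). Ccnd2 and Cdkn1b have the signs of the melanoma list on every array, Ccnd1, Cdkn2c, Ccnd3, Cdkn2d and Cdkn1c those of the endothelial list, and Cdkn1a and Cdkn2b are each above their mean on 1 array alone.

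The first comparison asked whether the most frequent and the least frequent clone differed. By limma's test 0 of the 10 members were called, each at an adjusted p of 1, and 0.0% of the 45037 probe sets. At an unadjusted p under 0.05 the test held 0 members and 1.04% of probe sets (469). Relative to limma's moderated error, the largest mean difference was that of Cdkn2b, at -0.97 ± 0.52 (SE, n = 2 per class, unadjusted p = 0.149 by limma). For the other 9 members the difference was smaller than this moderated error, among them Cdkn1c at 0.86 ± 1.51 (SE) and Cdkn1a at 0.51 ± 0.56 (SE). A ranking by each gene's own spread alone was not made. The median clone difference of the members was 0.07, beside 0.02 over all genes.

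Considered tumor by tumor, where 1 array per class allows no test, 5 members were at least 2-fold apart in tumor A and 5 in tumor B, against 16.3% and 14.4% of all genes. In tumor A Ccnd2 was higher in expansion (5.89% of all genes), and Cdkn1c, Cdkn2b, Cdkn2c and Ccnd1 were lower (10.4%). In tumor B Cdkn1a, Cdkn1c, Cdkn2d and Ccnd3 were higher (9.68%), and Ccnd2 was lower (4.77%). The members had median differences of -0.68 (tumor A) and 0.64 (tumor B), beside -0.04 and 0.07 over all genes.

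The signs were opposite in the 2 tumors for 8 of the 10 members and for 68.1% of all genes. Of these, 2 (Ccnd2 and Cdkn1b) had expansion above extinction in tumor A but below it in the other tumor, as had 28.6% of all genes, and 6 had the reverse, as had 39.5%. Only 1 member (Cdkn2a) was higher in both tumors (17.3%) and 1 (Cdkn2b) lower in both (14.1%). Only Ccnd2 and Cdkn1c were 2-fold apart in both directions (8.78% of all genes), and no tumor-to-tumor repeat of a 2-fold difference with the same sign was seen (0 members, 0.0879% of all genes). For 7 members both arrays with more melanoma signal lay on 1 side of the other 2, and this held for 55.1% of all genes. A share of 9 of 10 members spanned at least 2-fold over the 4 arrays, against 26.8% of all genes. However, 9 of the 10 were also brighter on average than the typical probe set, 5.83. The members were chosen with earlier results of these data known, so no count set beside all genes here tests for an excess.

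**Figure D3:**
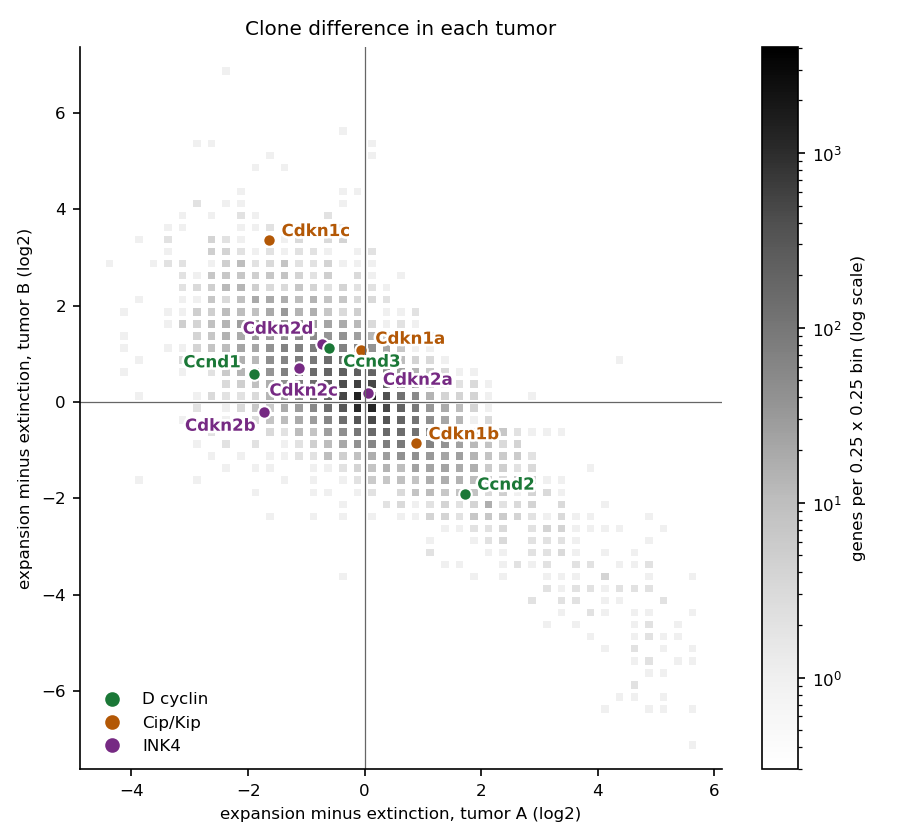
Log2 difference of expansion minus extinction in tumor A (horizontal axis) and tumor B (vertical axis) for the 10 members (colored by family) over all 18193 genes (grey squares: genes per bin, log scale). Cdkn1c lies at -1.64 and 3.36 and Ccnd2 at 1.72 and -1.91, on opposite sides, while Cdkn2b lies lower in both tumors.

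The other comparison was between the tumors. Here too limma called 0 of the 10 members, each at an adjusted p of 1, and 0.0% of probe sets, and 0 members and 1.44% of probe sets (648) had an unadjusted p under 0.05. Cdkn1a was higher in tumor B by 0.83 ± 0.43 (SE, n = 2 per tumor; unadjusted p = 0.14 by limma), by 1.40 in the expansion and 0.25 in the extinction arrays. The other 9 members differed by less than their moderated standard error, including Cdkn1c at 1.26 ± 1.42 (SE) and Cdkn1b at -0.45 ± 0.49 (SE).

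Within the expansion class 5 members were at least 2-fold apart between the tumors (18.2% of all genes): Cdkn1a, Cdkn1c and Ccnd1 higher in tumor B (11.0%) and Cdkn1b and Ccnd2 lower (7.19%). Within the extinction class 5 were (12.3%): Ccnd2 higher (4.2%) and Cdkn1c, Cdkn2b, Cdkn2d and Ccnd1 lower (8.05%). The log2 level of Cdkn1c in tumor B minus that in tumor A was 3.76 for the expansion arrays and -1.24 for the extinction arrays.

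**Figure D4:**
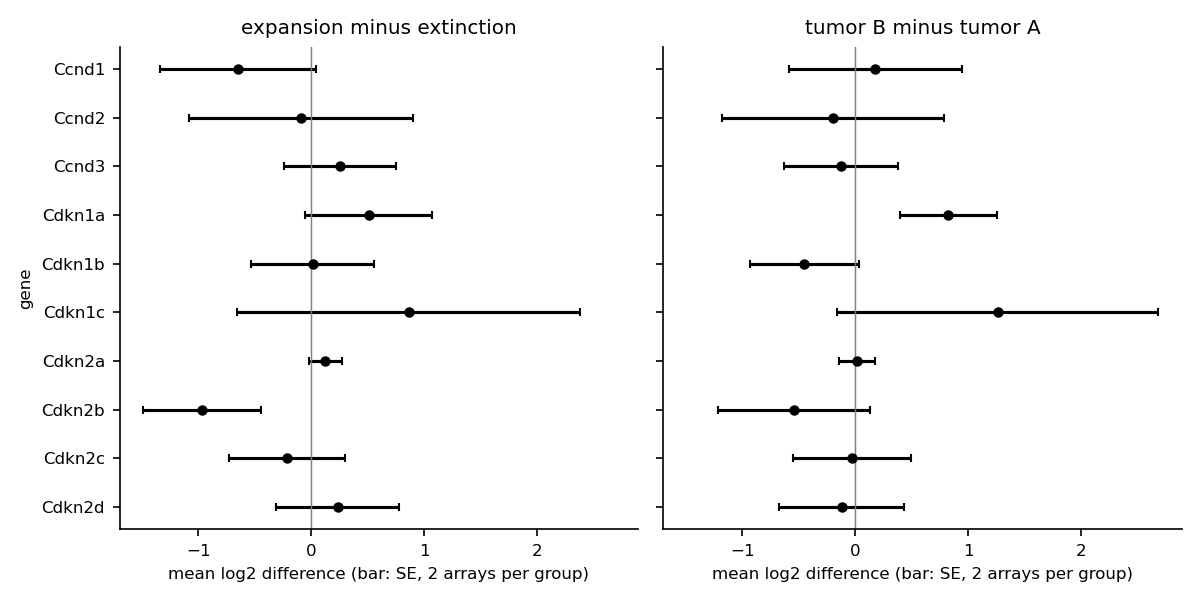
Mean log2 difference (horizontal axis) of each member between the clone classes (left) and between the tumors (right), with bars of 1 SE from limma and 2 arrays per group. Every bar but that of Cdkn2b on the left and that of Cdkn1a on the right reaches or crosses 0.

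The partners and regulators of these genes were followed through 7 lists with 97 genes measured. Of these, 0 passed limma's test between the clone classes or between the tumors, as did 0.0% of all probe sets. Between the clone classes 1 (Sesn1) had an unadjusted p under 0.05 by limma, beside 1.04% of probe sets. Between the tumors 6 had (Bub1, Cdc37, Cdk4, Igf2r, Rbl1 and Usp22), beside 1.44%. The lists were chosen with earlier results of these data known, so these counts do not test for an excess. Among 11 kinases and cyclins, the kinases that D cyclins activate each varied by less than 2-fold. Cdk4 was at 10.96, 11.03, 10.38 and 10.60 and Cdk6 at 9.05, 9.09, 9.16 and 9.24, in the same order. Cdk4 differed by -0.51 ± 0.17 (SE) between the tumors (unadjusted p = 0.0449 by limma), with tumor B lower in both classes. The kinase chaperone Cdc37 differed by -0.56 ± 0.18 (SE) between the tumors, and Ccnh, a subunit of the CDK-activating kinase, by -0.31 ± 0.23 (SE) between the clone classes.

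Cdk2, the partner of cyclins E and A and the kinase that Cip/Kip inhibitors block, was far from steady. It was at 11.83, 9.11, 8.75 and 11.08 in that order, high on the same arrays as Ccnd2, with log2 clone differences of 2.73 (tumor A) and -2.33 (tumor B). Cks1b, an adaptor in the destruction of p27, was below the extinction array of the same tumor in each expansion array, by 0.25 (tumor A) and 0.49 (tumor B), with a mean difference of -0.37 ± 0.27 (SE). The list had medians of -0.06 (tumor A) and -0.22 (tumor B). Of its 11 genes, 0 were higher in both (17.3% of all genes) and 4 lower in both (14.1%).

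Of 13 retinoblastoma and E2F genes, 2 were higher (17.3% of all genes) and 5 lower (14.1%) in expansion in both tumors. Rb1, the main target of CDK4 and CDK6, was at 8.72, 9.74, 10.40 and 8.89, high on the arrays with more endothelial signal like Ccnd3. The repressor E2f7 did so too, differing by -1.11 in tumor A and 2.305 in tumor B. Its relative E2f8 was lower in expansion by nearly the same amount in both, -0.86 and -0.88, and E2f1 by -0.25 and -0.59. Tfdp2, a dimer partner of E2F factors, was higher by 0.46 and 1.49. The pocket protein gene Rbl1 differed between the tumors by -0.50 ± 0.15 (SE).

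Among 12 genes of protein turnover, 0 were 2-fold apart in tumor A (16.3% of all genes) and 0 in tumor B (14.4%). In expansion 0 were lower in both tumors (14.1% of all genes) and 4 were higher in both (17.3%). They were led by Fbxw7, the ubiquitin ligase subunit that removes cyclin E, at 0.31 ± 0.20 (SE). Cul1, a scaffold of such ligases, was at 10.12, 9.66, 9.91 and 9.81, and the replication clamp Pcna at 12.58, 12.54, 12.59 and 12.19. Usp22 differed between the tumors by -0.56 ± 0.16 (SE), Dtl by -0.70 ± 0.40 (SE) and Ddb1 by -0.41 ± 0.19 (SE). Among 17 upstream regulators 3 were higher in both (17.3% of all genes) and 0 lower in both (14.1%). They were the Polycomb genes Cbx7, at 0.67 ± 0.33 (SE), and Rnf2, at 0.26 ± 0.22 (SE), and the forkhead factor Foxo3, an inducer of Cdkn1b, at 0.53 ± 0.18 (SE; unadjusted p = 0.0531 by limma). Ets2 and Id1, a regulator pair of the INK4 genes, were each more than 2-fold apart in opposite directions: Id1 was at 7.08, 9.34, 9.86 and 8.18. Myc, which represses several CDK inhibitors, was at 9.71, 10.09, 10.65 and 9.67.

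The p53 pathway list, with 15 of its 18 genes measured, had a median clone difference of 0.33, and medians of -0.12 (tumor A) and 0.07 (tumor B). Sesn1 was higher in expansion by 0.85 ± 0.23 (SE; unadjusted p = 0.0259 and adjusted p = 1 by limma), by 0.53 (tumor A) and 1.18 (tumor B). The list mean was 8.43, 8.60, 9.03 and 8.43, highest in expansion B like Cdkn1a. Sesn1, at 8.90, 8.37, 9.29 and 8.12, and Pmaip1, at 5.29, 7.15, 7.46 and 4.78, were highest there as well. Mdm2, the ubiquitin ligase of p53, was highest in expansion A, at 9.89, 9.29, 9.51 and 9.44. The p53 targets Ccng1, at 10.60, 10.74, 10.85 and 10.92, and Phlda3, at 8.34, 8.46, 8.57 and 8.64, were highest in extinction B. Pmaip1 and Plk2, the latter at 9.34, 11.80, 11.54 and 10.19, were high on both arrays with more endothelial signal.

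Of 12 measured imprinted genes, 2 were higher (17.3% of all genes) and 5 lower (14.1%) in expansion in both tumors. The list includes partners of Cdkn1c in a network of growth control. Igf2, a growth factor gene of the same imprinted cluster region as Cdkn1c, was at 5.92, 5.54, 7.96 and 6.17 and, like Cdkn1c, highest in expansion B. Mest was at 8.22, 10.96, 9.03 and 9.54, highest in extinction A. Plagl1, a factor that acts on Cdkn1c, was at 13.13, 10.61, 11.04 and 12.17. It was highest in expansion A, where Cdkn1c was lowest, but lowest in extinction A and not in expansion B. Meg3 was lower in expansion by 0.90 in tumor A and 0.39 in tumor B. Peg3 was at 8.01, 10.88, 10.72 and 9.60 and Dlk1 at 6.01, 5.99, 5.76 and 5.34, and Igf2r differed between the tumors by -0.58 ± 0.19 (SE).

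Proliferation genes were lower in expansion in both tumors for 9 of 17 (14.1% of all genes) and higher in both for 0 (17.3%). The medians were -0.32 (tumor A) and -0.57 (tumor B). The list mean was lowest in expansion B, at 9.25, and between 9.81 and 10.19 in the other arrays. Expansion B had the highest Cdkn1a and Cdkn1c, but also the lowest melanoma (6.34) and the highest endothelial (11.11) and adipocyte (7.45) list means. How any of these relates to the proliferation list was not tested. Mki67 was at 11.28, 11.38, 10.31 and 11.25 and Mcm6 at 10.81, 10.89, 9.46 and 10.91, both lowest in expansion B. Bub1, at 8.99, 9.32, 7.64 and 8.34, and Top2a, at 11.31, 11.24, 10.29 and 10.86, were lowest there too, whereas Cdc20, at 10.21, 11.53, 10.73 and 10.94, and Ccnb2, at 9.51, 10.53, 9.26 and 9.23, were not. Mcm2 and Mcm7 were 2-fold apart in opposite directions, running with Ccnd2.

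**Figure D5:**
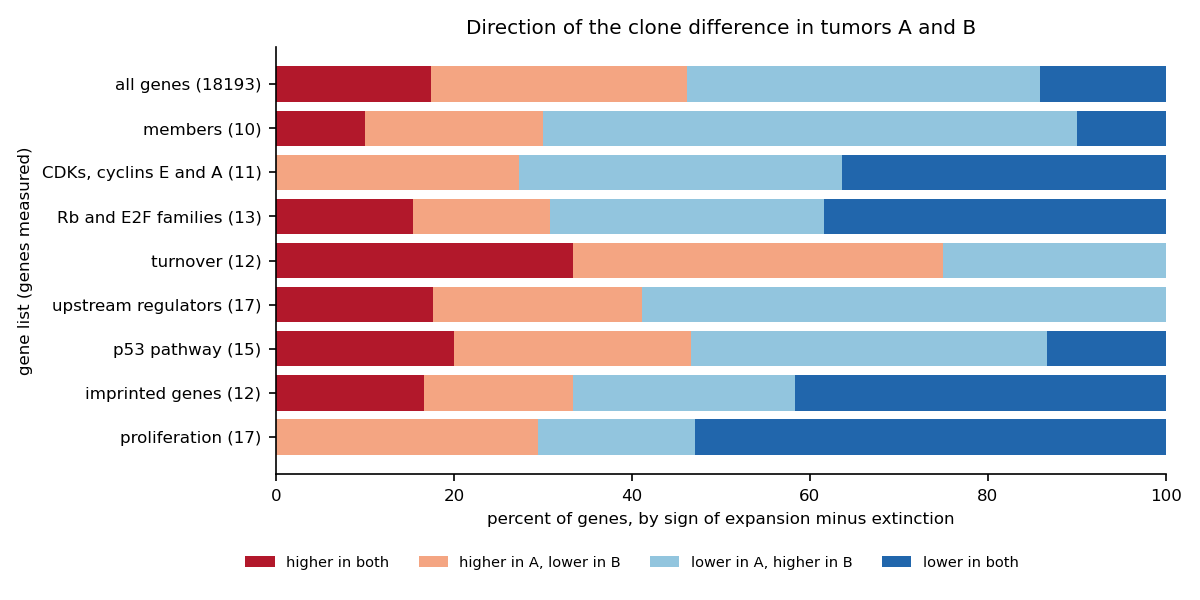
Share of genes (horizontal axis, percent) by the sign of expansion minus extinction in tumors A and B, for all 18193 genes, the 10 members and the 7 lists (vertical axis, genes measured in parentheses). Opposite signs make up 8 of the 10 members, and the proliferation list has 9 of 17 genes lower in both tumors.

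The genes whose centred values over the 4 arrays lay nearest to a member, by root mean square difference on the log2 scale, depended on how unusual its pattern was. For Cdkn1c 8 genes lay within 0.25, and the nearest was Bmp6, a bone morphogenetic protein, at 0.12, with levels of 5.21, 6.79, 9.19 and 5.81, followed by Tmtc1 at 0.14. For Cdkn2b 76 did, with Gm6377 at 0.07 and the netrin receptor gene Unc5b, a marker of endothelial tip and arterial cells, also at 0.07, with levels of 8.69, 10.35, 8.90 and 8.94. For Ccnd2 113 did, with Erdr1 at 0.04 and Cdk12, a transcriptional kinase, at 0.05. For Ccnd1 254 did, with Ubqln2 at 0.04 and Arrdc3 at 0.05. For Cdkn1a 162 did, with the tight junction gene Cldn10 and the plasminogen-binding Clec3b both at 0.03. For the commoner patterns of Cdkn2c, Ccnd3, Cdkn2d and Cdkn1b, between 917 and 1390 genes lay as near. The nearest to Cdkn2c were 2700081O15Rik and Zbtb1, to Ccnd3 Crebbp and Pcbd2, to Cdkn2d Sephs2 and Htr7, and to Cdkn1b Larp1 and Dna2, all within 0.03.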

How the data were processed

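Endothelial cells of B16 melanoma were profiled on 4 arrays, 1 per clone class and tumor. The deposited log2 values were made with RMA (affy package), per the submitters' processing notes, which name no version. RMA normalizes all arrays together. Per the labels' protocols the RNA was amplified, which may distort the levels of scarce transcripts.

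Of 45101 probe sets, 64 controls were left out. Of the 45037 tested, 34945 had 1 platform symbol, 932 several and 9160 none; RefSeq gene IDs changed 0 symbols. limma 3.58.1 (R 4.3.3) gave the two-sided tests, on 2 residual degrees of freedom, with Benjamini-Hochberg adjustment over all 45037 and a threshold of 0.05. This step was tested on simulated data. Clone class and tumor came from the labels, which number the tumors as replicates 1 and 2 and so pair the arrays; the deviations of the paired arrays had a correlation of -0.661 across 18193 genes. With 2 arrays per group each p-value reflects no more than the spread of these few arrays.

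Members and lists were chosen with earlier results of these data known. The text names all members, up to 3 genes per list by size of the clone difference (same sign in both tumors), up to 3 by the tumor difference, up to 2 with opposite differences of at least 2-fold, a set listed by name where measured, and the 2 genes nearest to each member that spanned at least 1 on the log2 scale. Alternatives were a tumor block, a filter on dim probe sets (mean below the median), a second quantile normalization, subtraction of array medians, a robust eBayes with trend, averaging of a gene's probe sets, each array left out, and a 1.5-fold threshold. A crossed pairing and the brightest probe set without the _x_at or _s_at mark were added after seeing the data, as was the adipocyte list.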

Additional observations from a re-analysis of the deposited data

Results flagged for a closer look

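In 8 members the clone difference had opposite signs in the 2 tumors. Each tumor gave 1 array of a class, so whether the tumors differ in this was not tested. On the log2 scale, the difference in tumor A minus that in tumor B was -5.002 for Cdkn1c, 3.62 for Ccnd2, -2.49 for Ccnd1, -1.94 for Cdkn2d, -1.83 for Cdkn2c, -1.74 for Ccnd3, 1.74 for Cdkn1b and -1.15 for Cdkn1a. For Cdkn1a the difference in tumor A was only -0.07, so its value comes from tumor B. The same opposition of signs was found in 68.1% of all genes. An exchange of the 2 arrays of 1 tumor cannot be told apart from this opposition in these files.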

How the results depend on the processing

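With every alternative that kept all arrays, limma called 0 probe sets and 0 members between the clone classes and between the tumors. The tumor as a replicate block gave 0 of each, and 128 probe sets at an unadjusted p under 0.05 between the clone classes. No call changed, but with 2 arrays per group these counts do not measure how stable the member differences are. A crossed pairing, added after seeing the data, put expansion A with extinction B and extinction A with expansion B. Its blocks were thus the arrays with more melanoma and with more endothelial signal. It called 0 probe sets, with 1440 of 45037 at an unadjusted p under 0.05. So was 1 of the 10 members, Ccnd1, at -0.65 ± 0.17 (SE, unadjusted p = 0.0363 by limma). For 6 members the clone difference exceeded its standard error. The pairing was picked from these data, so these values are no test. Of 148 member differences under settings that kept all arrays, 143 kept their sign and 5 did not: the clone difference of Cdkn1b was -0.0243 with the mean of its probe sets and that of Ccnd2 was 0.14 without marked probe sets, and the tumor difference of Cdkn2a was -0.0134 with array medians subtracted, that of Cdkn2c 0.0128 after quantile normalization again and that of Ccnd3 0.0881 with the mean of its probe sets. Many of these signs could not turn: in this balanced design the blocks, level filter and robust eBayes leave the estimates unchanged. Averaging leaves genes with 1 probe set as they were, and leaving out marked probe sets touches Ccnd2 alone. The cause of the 5 changes was not tested. Cdkn2a fell below the filter on level and was not tested there.

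At 1.5-fold, 8 members were apart in tumor A, 8 in tumor B and 7 in opposite directions, beside 5, 5 and 2 at 2-fold. The share of all genes at 1.5-fold was not counted, so these counts say nothing particular to the members. Leaving out each array in turn turned 27 of 80 signs. The clone difference ranged from -0.19 to 1.21 for Cdkn1a, -0.65 to 0.67 for Cdkn1b, -1.02 to 2.74 for Cdkn1c, 0.08 to 0.16 for Cdkn2a, -1.62 to -0.32 for Cdkn2b, -0.69 to 0.25 for Cdkn2c, -0.31 to 0.78 for Cdkn2d, -1.36 to 0.0577 for Ccnd1, -1.098 to 0.91 for Ccnd2 and -0.25 to 0.75 for Ccnd3. The tumor difference ranged from 0.29 to 1.37 for Cdkn1a, -0.89 to -0.01 for Cdkn1b, -0.42 to 2.94 for Cdkn1c, -0.0742 to 0.11 for Cdkn2a, -1.41 to 0.32 for Cdkn2b, -0.598 to 0.54 for Cdkn2c, -0.72 to 0.48 for Cdkn2d, -0.77 to 1.12 for Ccnd1, -1.15 to 0.76 for Ccnd2 and -0.69 to 0.44 for Ccnd3.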
